A study of Mus musculus with 2 samples.

Results

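The Krüppel-like factor (KLF) loci examined here were the 10 genes Klf2, Klf3, Klf4, Klf5, Klf6, Klf7, Klf9, Klf10, Klf11 and Klf13, of 22367 protein-coding genes. They are a part of the Klf family and were chosen by name, with earlier results of these data known. Every DNaseI peak that overlapped one of these genes, or lay within 50 kb of its ends, was assigned to it. This gave 34 of the 17784 vehicle peaks and 39 of the 22600 peaks of the TGFβ 2 h list. NMuMG is an epithelial line from the normal mouse mammary gland. Both cultures had been kept for 6 h without serum and insulin. One then received vehicle for 2 h and the other TGFβ1 at 5 ng/ml for 2 h. The labels describe the vehicle once as Tris-HCl with BSA and once as HCl with BSA. In DNaseI-seq, nuclei are digested briefly, the short fragments released from open chromatin are sequenced, and places of high fragment density are called as peaks.

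Each condition had a single peak list, so no spread between replicates could be given and the lists were compared without a test. The 95% intervals below are exact (Clopper-Pearson) and cover the counting of peaks only. Of 10 epithelial markers, 4 (Cdh1, Krt8, Krt18 and Krt19) had a peak at their own promoter in both lists. Grhl2 had one in the vehicle list alone, and Epcam, Cldn4, Cldn7, Esrp1 and Ovol1 had none. None of the 14 markers of leukocytes, endothelium, muscle, neurons or liver present in the annotation had a promoter peak in either list.

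KLF proteins are transcription factors that bind CACCC elements and GC boxes through a conserved set of C-terminal zinc fingers, and the related Sp proteins bind much the same sites. Some members chiefly activate their targets and others chiefly repress them, and many are known as immediate or early response genes. In epithelia they are best known for their part in proliferation, barrier formation and terminal differentiation. Klf10 and Klf11 were first described as TGFβ-inducible early genes.

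The letters of 9 of the 16 regions that were called in 1 list alone are shown first, since the comparison between the lists turns on them. Each is the 200 bp around the midpoint of a peak, on the plus strand of mm9. Capitals mark any of 6 exact strings, searched on both strands: TGANTCA (AP-1), GGGNGTGG (the CACCC type bound by KLF proteins), GGGGCGG (GC box, Sp), CAGACA (SMAD), GGAATG (TEAD) and TGTGGT (RUNX). A string is a description of the letters and not evidence that a factor bound there. The first 3 windows are the peaks of the TGFβ 2 h list alone that reached the score ceiling, at chr5:65256024-65256223 (Klf3), chr13:5836773-5836972 (Klf6) and chr1:64051930-64052129 (Klf7).
Klf3 TGFβ 2 h-only: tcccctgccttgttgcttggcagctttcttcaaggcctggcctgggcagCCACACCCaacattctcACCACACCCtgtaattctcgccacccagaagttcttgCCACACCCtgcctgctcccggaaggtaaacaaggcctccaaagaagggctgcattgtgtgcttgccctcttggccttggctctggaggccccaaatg
Klf6 TGFβ 2 h-only: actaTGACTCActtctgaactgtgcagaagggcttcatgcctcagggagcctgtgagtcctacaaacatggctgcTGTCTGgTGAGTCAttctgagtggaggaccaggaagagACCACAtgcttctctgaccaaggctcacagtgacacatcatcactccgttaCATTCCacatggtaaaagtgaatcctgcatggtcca
Klf7 TGFβ 2 h-only: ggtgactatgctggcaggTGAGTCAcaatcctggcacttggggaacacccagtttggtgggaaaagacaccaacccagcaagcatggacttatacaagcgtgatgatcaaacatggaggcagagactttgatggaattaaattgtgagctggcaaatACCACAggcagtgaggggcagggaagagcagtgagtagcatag

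In the Klf3 window the CACCC-type string occurred 3 times, and 1 copy overlapped a RUNX string. The Klf6 window held the AP-1 string on either side of a SMAD string. The next 3 windows are those of Klf5 (chr14:99723878-99724077), of the Klf9 intron (chr19:23237003-23237202), which held a pair of AP-1 strings separated by a short spacer, and of Klf10 (chr15:38207749-38207948), which held a SMAD string.
Klf5 TGFβ 2 h-only: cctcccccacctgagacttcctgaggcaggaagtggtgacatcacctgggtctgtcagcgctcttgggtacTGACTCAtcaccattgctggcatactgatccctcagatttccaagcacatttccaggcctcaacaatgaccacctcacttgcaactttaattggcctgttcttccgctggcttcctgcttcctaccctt
Klf9 TGFβ 2 h-only: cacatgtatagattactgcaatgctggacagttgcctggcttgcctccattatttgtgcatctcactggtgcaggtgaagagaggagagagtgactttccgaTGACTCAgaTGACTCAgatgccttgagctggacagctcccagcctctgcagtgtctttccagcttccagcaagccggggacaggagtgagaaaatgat
Klf10 TGFβ 2 h-only: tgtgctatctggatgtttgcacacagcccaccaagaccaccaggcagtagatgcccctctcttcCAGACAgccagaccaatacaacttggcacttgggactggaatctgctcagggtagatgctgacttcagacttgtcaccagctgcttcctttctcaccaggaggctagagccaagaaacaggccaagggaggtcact

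Of the 5 vehicle-only windows, those of Klf4 (chr4:55554418-55554617), Klf10 (chr15:38266053-38266252) and Klf11 (chr12:25371188-25371387) are given. The first held a TEAD string, the second a pair of SMAD strings and the last none. Of those not shown, the Klf6 window held a TEAD string and the Klf3 window none. For Klf4 and Klf13 the TGFβ 2 h-only windows, also not shown, each held a RUNX string. Of the Klf11 windows, not shown either, that of the peak at 25327146 held a SMAD string and that at 25327548 none. The window of the Klf11 peak at 25346011 held SMAD, TEAD and RUNX strings.
Klf4 vehicle-only: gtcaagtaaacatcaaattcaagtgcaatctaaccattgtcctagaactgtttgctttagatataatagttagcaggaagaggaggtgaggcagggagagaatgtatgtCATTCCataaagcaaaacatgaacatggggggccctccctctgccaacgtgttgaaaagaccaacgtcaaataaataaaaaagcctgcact
Klf10 vehicle-only: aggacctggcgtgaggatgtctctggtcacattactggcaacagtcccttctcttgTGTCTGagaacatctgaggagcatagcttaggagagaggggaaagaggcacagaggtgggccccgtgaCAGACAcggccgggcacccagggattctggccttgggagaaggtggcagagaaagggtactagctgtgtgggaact
Klf11 vehicle-only: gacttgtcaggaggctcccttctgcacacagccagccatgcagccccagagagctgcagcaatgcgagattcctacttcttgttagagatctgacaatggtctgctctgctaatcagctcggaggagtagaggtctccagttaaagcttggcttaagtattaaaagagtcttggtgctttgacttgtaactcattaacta

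The promoters of Klf3, Klf6 and Klf7, the genes with an unshared peak at the ceiling, are shown beside them. Like those of the other members they had a peak in both lists. The stretch of each promoter peak just upstream of the first start site is shown in the direction of transcription, at chr5:65194428-65194627 (plus strand), chr13:5860535-5860734 (plus strand) and chr1:64168857-64169017 (minus strand). Their GC content was 79.5%, 68.0% and 69.6%, and each held at least 1 GC box string.
Klf3 promoter: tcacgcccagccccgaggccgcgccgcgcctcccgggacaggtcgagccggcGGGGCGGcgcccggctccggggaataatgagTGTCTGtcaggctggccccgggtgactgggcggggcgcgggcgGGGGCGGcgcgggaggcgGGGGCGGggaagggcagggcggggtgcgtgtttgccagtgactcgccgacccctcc
Klf6 promoter: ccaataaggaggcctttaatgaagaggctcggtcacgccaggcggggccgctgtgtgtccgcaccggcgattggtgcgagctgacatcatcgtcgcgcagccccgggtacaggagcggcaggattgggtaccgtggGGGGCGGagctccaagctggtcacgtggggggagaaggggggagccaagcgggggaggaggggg
Klf7 promoter: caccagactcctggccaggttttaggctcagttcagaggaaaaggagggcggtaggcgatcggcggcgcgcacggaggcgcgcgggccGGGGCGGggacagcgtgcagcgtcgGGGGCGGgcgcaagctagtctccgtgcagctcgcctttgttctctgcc

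All 10 genes had a peak at their own promoter, within 1000 bp of an annotated start site, in the vehicle list and in the TGFβ 2 h list. Over all protein-coding genes this held for 44.0% (9846 genes). The members were chosen with earlier results known, and the part of that choice in this difference was not tested. The 10 genes had 15 promoter peaks of their own in vehicle and 13 after TGFβ, and in each list every gene had at least 1 at the score ceiling of 1000. The deposited score is a whole number from 540 to 1000 in both lists. What it measures is not stated, so it is not read as signal strength. It is used to place a peak within its own list, and scores of both lists are given side by side as a description. No promoter peak near these genes was found in the TGFβ 2 h list alone (0 of 16, 95% interval 0.0 to 20.6%), against 10.1% of all promoter peaks of that list. Nor was any of the 18 vehicle promoter peaks found in the vehicle list alone (95% interval 0.0 to 18.5%). Every unshared peak of the KLF loci was thus distal, with the 10.1% of the whole list inside the TGFβ 2 h interval.

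Among the 39 TGFβ 2 h peaks, 28 had a vehicle counterpart and 11 had none (28.2%, 15.0 to 44.9%). Over the whole list the unshared share was 33.7%. Of the 34 vehicle peaks, 29 were shared and 5 were vehicle-only (14.7%, 4.95 to 31.1%), against 17.6% of all vehicle peaks. Both shares at the KLF loci had intervals that held the value of the whole list. The same was true of distal peaks taken alone, of which 11 of 23 were TGFβ 2 h-only (47.8%, 26.8 to 69.4%, all distal peaks 55.3%) and 5 of 16 were vehicle-only (31.2%, 11.0 to 58.7%, all distal peaks 31.6%). An unshared peak is one that was called in 1 list, and signal below the calling limit in the other condition is not seen in these lists. The balance between the lists depended on their length: with the TGFβ 2 h list cut to the length of the vehicle list by score, 8 peaks were TGFβ 2 h-only and 9 were vehicle-only.

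**Figure D1:**
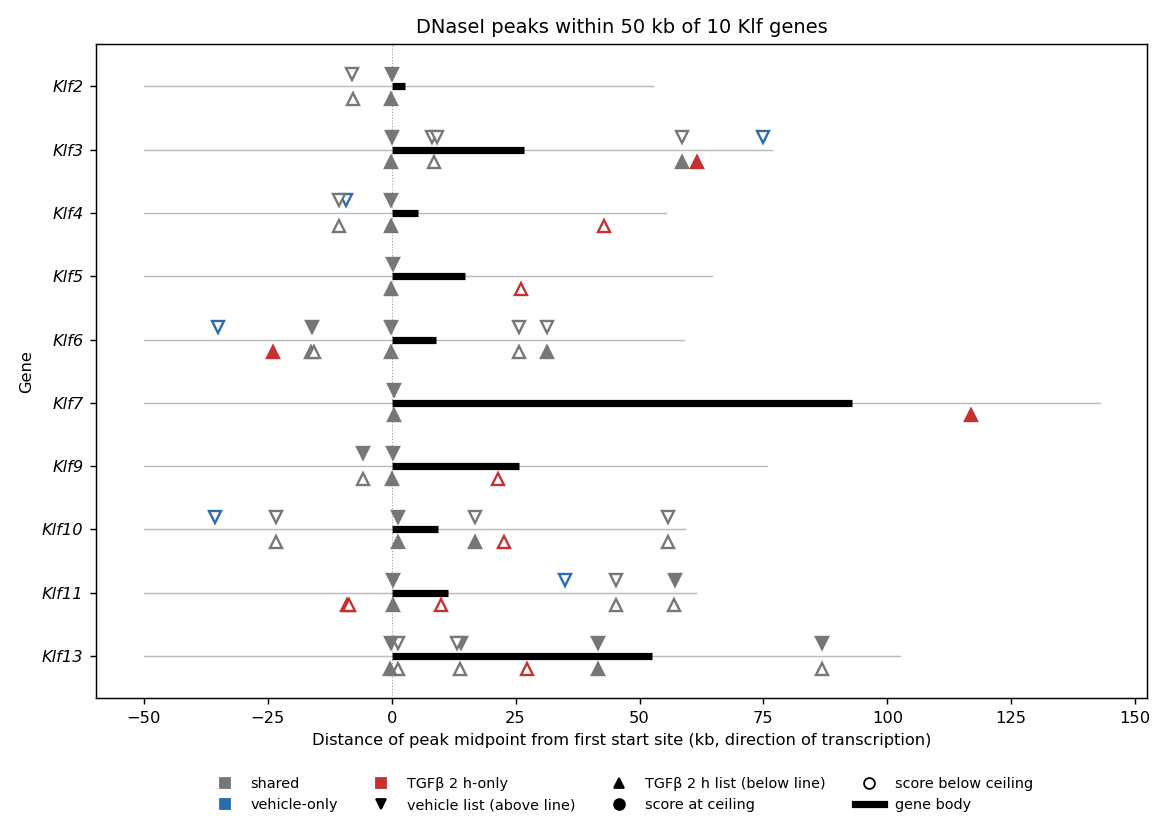
Positions of the DNaseI peaks of the 10 Klf genes, as distance in kb from the first annotated start site in the direction of transcription, with vehicle peaks above and TGFβ 2 h peaks below each line. The thin line is the gene with 50 kb on either side. All coloured markers, the 11 TGFβ 2 h-only (red) and 5 vehicle-only (blue) peaks, are distal, and each gene has a grey shared peak at one of its own start sites.

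Unshared peaks were spread over the genes. At 9 of the 10 genes, all but Klf2, there was at least 1 TGFβ 2 h-only peak. Among the 9846 genes with an own promoter peak in both lists the share was 49.5%. Of these 9 genes, 8 had exactly 1 such peak, a number that 50.5% of those 9846 genes did not reach and 21.7% surpassed. Klf11 had 3, or 2 with peaks under 150 bp left out. A vehicle-only peak was found at 5 genes (Klf3, Klf4, Klf6, Klf10 and Klf11), against a share of 31.8%. The number of peaks was higher in the TGFβ 2 h list at 5 genes (Klf5, Klf6, Klf7, Klf9 and Klf11, background 41.6%), equal at 4 and lower at Klf3 alone (background 15.5%).

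The TGFβ 2 h-only peaks at the ceiling lay at 3 of the 9 genes. They were 3 of 11 unshared peaks (27.3%, 6.02 to 61.0%), while 7.77% of all TGFβ 2 h-only peaks reached the ceiling. None of the 5 vehicle-only peaks did. Regardless of sharing, 16 of 34 vehicle peaks (47.1%, 29.8 to 64.9%) and 18 of 39 TGFβ 2 h peaks (46.2%, 30.1 to 62.8%) were at the ceiling, beside 53.2% and 44.3% over the whole lists. The median width of the TGFβ 2 h-only peaks was 493 bp, against 602 bp for shared distal peaks of the same list and 436 bp for all TGFβ 2 h-only peaks. For vehicle-only peaks it was 453 bp, against 743 bp for shared distal peaks and 471.5 bp for all vehicle-only peaks. Of the 11 TGFβ 2 h-only peaks, 8 were intergenic, 2 intronic and 1 in a UTR exon, and all 5 vehicle-only peaks were intergenic.

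Klf10, on chromosome 15 (38221219 to 38230464, minus strand), and Klf11, on chromosome 12 (25336236 to 25347639, plus strand), encode the repressors known as TIEG proteins. Klf10 had 5 peaks in each list, 1 of them at the promoter of Gm8705. Its ceiling peak (vehicle 38228668 to 38229541, TGFβ 38228686 to 38229515) lay on a downstream start site inside the gene. It stopped 923 bp short of the first annotated start in vehicle and 949 bp short after TGFβ. The other 9 KLF genes had their first start inside a peak in both lists, as did 85.9% of the 9846 genes. Distally, Klf10 had a TGFβ 2 h-only peak at 38207635 to 38208064 (score 763, above 34.5% of the list) and had a vehicle-only peak at 38266030 to 38266277 (score 590, above 7.82%). The shared peak 16.7 kb downstream of the first start had a score of 742 in vehicle and 1000 in the TGFβ 2 h list, and was 675 and 367 bp wide. The peak 23.4 kb upstream scored 871 and 924.

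Klf11 had 4 vehicle and 6 TGFβ 2 h peaks, and with 3 TGFβ 2 h-only peaks it held the most of the 10 genes. A pair of them were neighbours, 8.93 and 8.65 kb upstream, at 25327146 to 25327459 (score 738) and 25327548 to 25327620 (score 739, only 73 bp wide). The remaining one covered a UTR exon at the 3′ end of the gene (25346011 to 25346419, score 798, above 38.3% of the list). The vehicle-only peak at 25370878 to 25371698 (score 761) lay 35.0 kb downstream, and the start of Cys1 was the coding start nearest to it, at 4.61 kb. The Klf11 window also held coding neighbours (Cys1, Grhl1 and Rrm2), and the peak at the Rrm2 promoter scored 1000 in vehicle and 977 after TGFβ. Of 22366 other coding genes, 41 had the same counts of shared, vehicle-only and TGFβ 2 h-only peaks as Klf11. Those closest to it in window length (111 kb) were Mcfd2, F12 and Errfi1, at 111, 109 and 115 kb.

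Klf6, a widely expressed factor often described as a tumour suppressor, lies on chromosome 13 (5860735 to 5869639, plus strand) with no coding neighbour in its window. It had 5 vehicle and 6 TGFβ 2 h peaks. The TGFβ 2 h-only peak at 5836528 to 5837218, 23.9 kb upstream, was 691 bp wide and at the ceiling. A vehicle-only peak lay 35.0 kb upstream at 5825540 to 5825862 (score 616, above 11.7% of the list). The pair of shared peaks downstream were wider in the TGFβ 2 h list: the one 25.6 kb from the start scored 620 and 732 and was 348 and 455 bp wide, and that at 31.4 kb scored 756 and 1000 and was 405 and 929 bp wide. A ceiling peak of vehicle at 5844206 to 5845028 corresponded to 2 peaks after TGFβ, of 780 and 84 bp. The additional peak in the count of Klf6 was this divided one, while its vehicle-only and TGFβ 2 h-only peaks numbered 1 each.

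Klf3, a repressor that recruits the corepressor CtBP, lies on chromosome 5 (65194628 to 65221368, plus strand). It had 5 vehicle peaks and 4 TGFβ 2 h peaks. The TGFβ 2 h-only peak with the CACCC-type strings lay beyond the 3′ end of the gene, 61.5 kb from the start (65255878 to 65256370, ceiling). A shared peak nearby, at 58.6 kb, scored 814 in vehicle and 1000 after TGFβ, with almost the same width (886 and 894 bp). The vehicle-only peak at 65269279 to 65269731 (score 548, above 1.28% of the list) was near the edge of the window, 47.9 kb from the gene. At the internal start sites of Klf3 the single TGFβ peak (65202893 to 65203562, score 569) overlapped 2 vehicle peaks (scores 622 and 640). The next pair of peaks beyond the window was 51.5 kb (vehicle) and 52.1 kb (TGFβ) from the gene and was shared.

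Klf4 and Klf5 act in epithelia with largely opposite roles: Klf4 goes with differentiation and barrier formation and Klf5 with proliferation. Klf4, on chromosome 4 (55540013 to 55545347, minus strand), had 3 peaks in each list. Its vehicle-only peak (55554209 to 55554828, score 675) lay 9.17 kb upstream, near a shared peak at 10.6 kb upstream whose score was 550 in vehicle and 935 after TGFβ. That shared peak scored above 1.63% of its list in vehicle and above 50.6% after TGFβ. These places are within lists of different length (17784 and 22600 peaks), and their difference was not tested. The TGFβ 2 h-only peak lay 42.9 kb from the start, past the 3′ end (55502335 to 55502630, score 586). Klf5, on chromosome 14 (99697910 to 99712624, plus strand), had its promoter as the sole vehicle peak (99697501 to 99698652). After TGFβ this peak was 609 bp wide against 1152 bp (99697539 to 99698147), and a TGFβ 2 h-only peak was called at 99723565 to 99724391 (827 bp, score 710, above 28.3% of the list).

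Klf7, a factor best known from neurons, covers 92.8 kb of chromosome 1 (64076021 to 64168856, minus strand). Its only vehicle peak was at the promoter (64167783 to 64169049). The TGFβ 2 h list had in addition a ceiling peak at 64051766 to 64052295, 117 kb from the start and past the 3′ end of the gene, for which the start of Klf7 was still the nearest coding start. Klf9, a glucocorticoid-responsive factor on chromosome 19 (23215716 to 23241401, plus strand), had 2 vehicle peaks. Of these, 1 was at the promoter of 2410080I02Rik and was shared. The additional peak after TGFβ lay in an intron (23236788 to 23237419) and was among the lowest-scored of the list, with a score of 541 and 0.142% of the list below it.

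Klf13, known for its part in lymphocytes and heart, lies on chromosome 7 (71031237 to 71083801, minus strand). It had 6 peaks in each list, the most of the 10 genes in vehicle. Its TGFβ 2 h-only peak was intronic (71056294 to 71056825, score 578, above 7.54% of the list). The shared peak 86.8 kb from the start was at the ceiling in vehicle and had a score of 574, above 6.79% of the list, after TGFβ. At the second start site a TGFβ peak (71069472 to 71070723) joined 2 vehicle peaks (71069480 to 71070130 and 71070307 to 71070908). Counts were thus equal although 1 peak was TGFβ 2 h-only.

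Klf2, best known from endothelium and quiescent lymphocytes, lies on chromosome 8 (74842932 to 74845555, plus strand) and was the sole member with no unshared peak. Its promoter peak was 897 bp wide in vehicle (74842527 to 74843423) and 635 bp after TGFβ (74842522 to 74843156). The upstream peak, at -7.91 kb from the start (74834652 to 74835394 in vehicle) scored 718 and 789. The start of Gm10282 was the coding start nearest to this vehicle peak, at 5.86 kb. At this locus both lists held the same 2 sites.

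The remaining own promoter peaks were also shared. Those of Klf3 (65194016 to 65195535 in vehicle, 65194123 to 65195053 after TGFβ), Klf4 (55545018 to 55545952, 55545052 to 55545982) and Klf6 (5860050 to 5861124, 5860117 to 5861090) were at the ceiling. So were those of Klf7 (64167889 to 64169017 after TGFβ), Klf9 (23215192 to 23216732, 23215110 to 23216437) and Klf11 (25335888 to 25337210, 25335867 to 25337174), and the first promoter of Klf13 (71083265 to 71084787, 71083496 to 71084877). A second Klf13 peak close to it (71082019 to 71083028, 71082080 to 71082839) scored 763 and 900.

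Widths were compared over the 24 pairs in which 1 vehicle peak overlapped exactly 1 TGFβ 2 h peak. The TGFβ peak was narrower in 21 pairs (87.5%, 67.6 to 97.3%), against 70.9% of all 13978 such pairs. The median ratio of TGFβ to vehicle width was 0.855 (range 0.475 to 2.29), beside 0.906 over all pairs. All 11 own-promoter pairs were narrower after TGFβ (71.5 to 100%), with ratios from 0.529 at Klf5 to 0.996 at Klf4. Over all promoter pairs 75.8% were narrower. The 3 wider pairs were the distal ones of Klf3 and Klf6 described above. By the study's reporting summary the vehicle library was the deeper one, and the part of depth in the widths was not tested.

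Scores of the same pair are set side by side above as a description, and no difference was tested. Of the 10 distal pairs, 7 scored higher in the TGFβ 2 h list, 2 lower and 1 equal. The 2 lower pairs were at Klf11 (653 and 612) and Klf13 (1000 and 574). Over all 4934 distal pairs, 2230 scored higher, 1544 lower and 1160 equal. In both lists 10 of the 11 own-promoter pairs were at the ceiling, and of the 10 distal pairs 1, in an intron of Klf13, was at the ceiling in both.

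**Figure D2:**
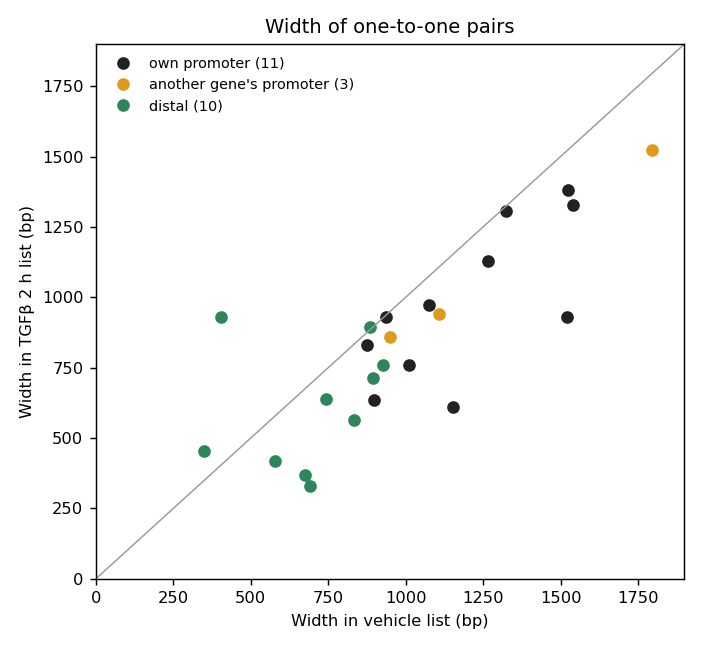
Width in bp of each of the 24 one-to-one pairs in the vehicle list (x axis) and the TGFβ 2 h list (y axis), with the line of equal width. Of the 24 points, 21 lie under the line, among them all 11 own-promoter pairs (black), and the 3 above it are distal pairs (green).

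Other genes were counted in the same way. The other 16 Klf and Sp genes had 49 vehicle and 56 TGFβ 2 h peaks, counted gene by gene (42 and 48 distinct peaks). Of the 49 and 56, 6 were vehicle-only (12.2%) and 12 TGFβ 2 h-only (21.4%, 11.6 to 34.4%). Only 5 of the 16 had an own promoter peak in both lists, 10 had none in either, and Sp8 had one in vehicle alone. The part of the choice of the 10 KLF genes in this contrast was not tested. The 10 AP-1 genes (Jun, Junb, Jund, Fos, Fosb, Fosl1, Fosl2, Atf3, Jdp2 and Batf) had 56 and 68 peaks, with 3 vehicle-only (5.36%) and 14 TGFβ 2 h-only (20.6%, 11.7 to 32.1%). Of these, 9 had an own promoter peak in both lists, and 7 had more peaks in the TGFβ 2 h list. Over all protein-coding genes counted gene by gene the shares were 14.6% vehicle-only and 25.0% TGFβ 2 h-only. Over the 9846 genes with a promoter peak in both lists they were 11.9% and 21.2%. The 28.2% of the 10 KLF genes was the highest of these 5 values, but its interval held all the others. The 10 KLF genes had a mean of 3.4 vehicle and 3.9 TGFβ 2 h peaks each, near the 3.58 and 4.09 of the 9846 genes.

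**Figure D3:**
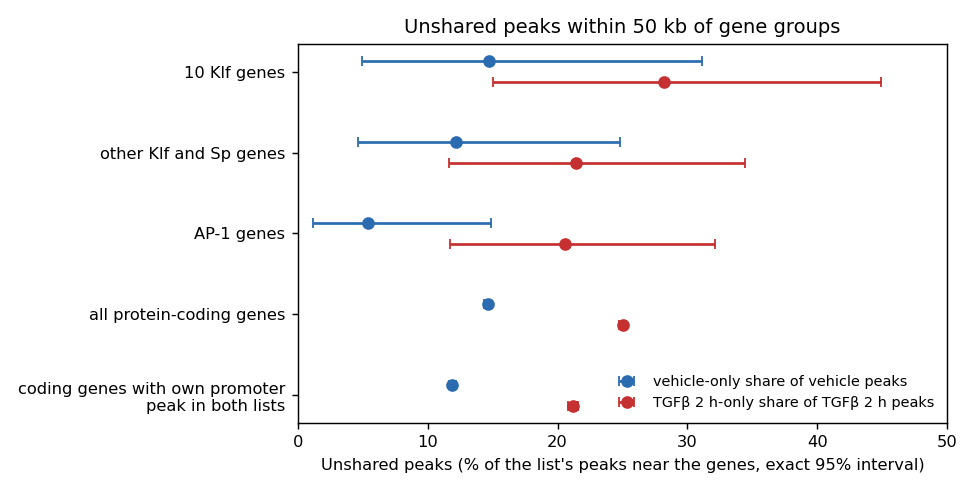
Share of peaks near each gene group that were vehicle-only (blue, percent of vehicle peaks) or TGFβ 2 h-only (red, percent of TGFβ 2 h peaks), with exact 95% intervals that cover counting only. A peak near several genes of a group is counted for each of them, and the intervals treat these counts as separate. The TGFβ 2 h-only share is above the vehicle-only share in each group. With the lists cut to equal length the 10 Klf genes had 8 TGFβ 2 h-only and 9 vehicle-only peaks. The intervals of the 10 Klf genes (28.2% and 14.7%) hold the values of all coding genes (25.0% and 14.6%).

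Strings were counted by class of peak. The AP-1 string was in 4 of the 11 TGFβ 2 h-only windows (Klf5, Klf6, Klf7 and Klf9; 36.4%, 10.9 to 69.2%), where 32.1% of all TGFβ 2 h-only distal peaks held it. It was in none of the 5 vehicle-only windows, beside 10.4% of all vehicle-only distal peaks. Of 12 shared distal windows, taken from the TGFβ 2 h list, 8 held it (66.7%, 34.9 to 90.1%), against 27.1% of all shared distal peaks. With the same sites taken from the vehicle list, where the midpoints differ, 6 of 11 windows held it (54.5%, 23.4 to 83.3%), beside 25.6% of all shared distal vehicle peaks, a value inside the interval. Of the 8, 4 lay at Klf6, 2 of them parts of the single vehicle peak described above, and the others at Klf2, Klf10, Klf11 and Klf13. The SMAD string was in 4 of the 11 windows (Klf6, Klf10 and 2 of Klf11), beside 29.8% of all such peaks.

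The CACCC-type string was in 1 of the 11 windows, that of Klf3 (9.09%), beside 9.04% over all TGFβ 2 h-only distal peaks. RUNX strings were in 6 of 11 windows (54.5%, 23.4 to 83.3%), beside 22.0% overall. Shared distal windows of the TGFβ 2 h list held them in 6 of 12 (50.0%, 21.1 to 78.9%), beside 19.9% of all shared distal peaks. They were also in 5 of 11 flanks taken 2000 bp upstream of the TGFβ 2 h-only peaks, where all flanks gave 15.0%. Own-promoter peaks differed from the unshared distal windows. The GC box was in 7 of 13 (53.8%, 25.1 to 80.8%), beside 32.0% of all promoter peaks, and in no unshared distal window. Over all unshared distal peaks the GC box was in 2.67% (TGFβ 2 h-only) and 3.44% (vehicle-only). The median GC content was 71.0% at own promoters and 52.5% at TGFβ 2 h-only windows, and the corresponding medians over all peaks were 67.0% and 51.0%.

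**Figure D4:**
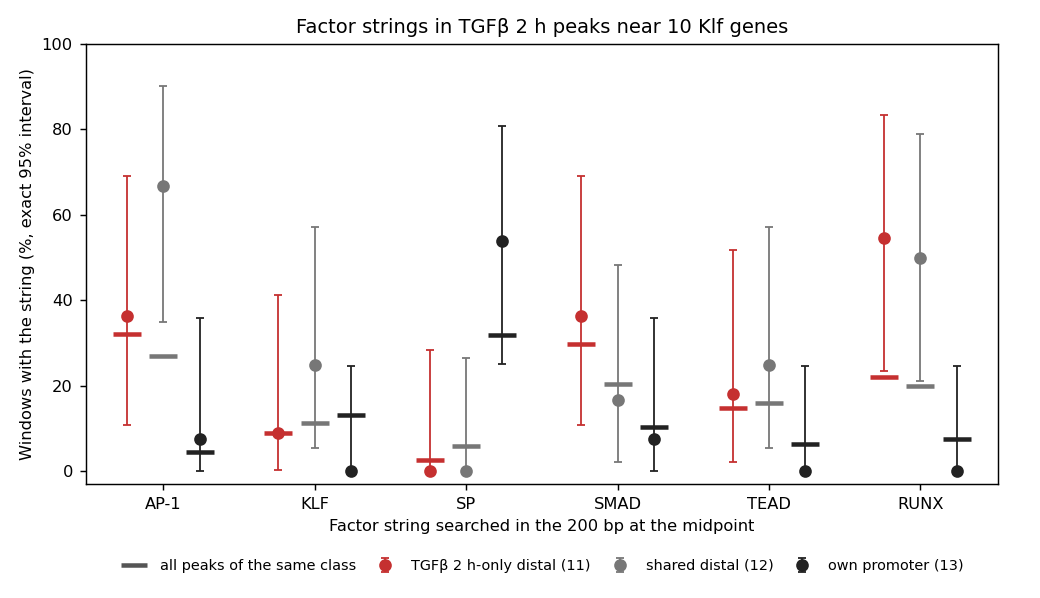
Share of 200 bp windows (percent, exact 95% interval) holding each string, in TGFβ 2 h-only distal (red, 11), shared distal (grey, 12) and own-promoter (black, 13) peaks of the TGFβ 2 h list near the 10 Klf genes. Short bars give the share over all peaks of the same class. The AP-1 point of TGFβ 2 h-only peaks (36.4%) is close to its bar (32.1%). That of shared distal peaks (66.7%, bar 27.1%) was 54.5% with the vehicle list's midpoints.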

How the data were processed

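DNaseI-seq of 1 vehicle and 1 TGFβ 2 h sample was grouped by the sample titles. Per the labels, MACS2 2.1.2 and deepTools were among the tools used, on mm9. According to the methods, DNaseI-seq went through the authors' ATAC-seq pipeline, which called peaks with macs2 and kept those reproducible between replicates by the irreproducible discovery rate, but with other options that are not stated. How that step gave each list is not stated either. The peak files used here held intervals with start and end positions, and a score that the authors gave each row (whole numbers from 540 to 1000). They hold no reads, and the deposited raw reads were not used. The reporting summary lists fewer mapped reads for TGFβ 2 h than for vehicle, and nothing was scaled by depth. Rows with the same interval (70449 vehicle and 68542 TGFβ 2 h rows) were counted as 1 peak. Each list had 1 peak that ran past a chromosome end in NCBIM37.

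Peaks were assigned to GENCODE M1 genes with 50 kb on either side, and were called shared at an overlap of 1 bp. Promoter peaks overlapped 1000 bp on either side of any start site. Overlap steps were tested on simulated data. Sequence came from NCBIM37 (mm9), with windows on UTR exons searched for strings but not printed, and coordinates are 1-based. Python 3.11.15, pandas 2.3.3, SciPy 1.17.1, pysam 0.24.0 and matplotlib 3.10.9 were used. Alternatives were the overlap, window, score, list length, peak width and rows. Named regions were own promoter peaks, each gene's best-scored TGFβ 2 h-only peak, all vehicle-only peaks and all unshared ceiling peaks. The other TGFβ 2 h-only peaks of Klf11 and shared distal peaks were named after their values were seen. The members and lists were chosen with earlier results of these data known.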

Additional observations from a re-analysis of the deposited data

How the results depend on the processing

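Of 78 alternative values, 44 stayed close to the reported one (within 1.5 times for a count), 31 moved and 3 reversed. The differences between the lists (5 peaks in all and 6 unshared peaks more after TGFβ) were taken after the data were seen. With the longer list cut to the length of the shorter they became -1 and -1, with 9 vehicle-only peaks. With every deposited row counted there were 153 vehicle and 138 TGFβ 2 h rows (difference -15), 13 vehicle-only and 25 TGFβ 2 h-only rows (difference 12), 12 with the AP-1 string, and 3 genes with more rows after TGFβ. A reciprocal overlap of 50% gave 10 vehicle-only peaks and 7 TGFβ 2 h-only distal peaks with the AP-1 string. A window of 10 kb left 20 vehicle and 22 TGFβ 2 h peaks (difference 2), of which 1 was vehicle-only and 5 were TGFβ 2 h-only, 1 TGFβ 2 h-only peak with the AP-1 string, and 2 genes with more peaks. A window of 100 kb gave 8 such genes and differences of 9 in all peaks and 9 in unshared peaks. Peaks not below the median of their own list (1000 for vehicle, 927 for TGFβ 2 h) numbered 16 and 23, with 1 vehicle-only and 7 TGFβ 2 h-only. At the ceiling there were 16 and 18 (difference 2), with 0 vehicle-only and 3 TGFβ 2 h-only (difference 3), 2 of them with the AP-1 string. Dropping peaks under 150 bp gave a difference of 3. Causes were not tested. The TGFβ 2 h-only share stayed between 16.7% and 38.5%, inside its counting interval, and the median width ratio between 0.809 and 0.891.

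Limits: there is 1 list per condition, so nothing here separates TGFβ from the spread between cultures or libraries. The libraries differed in depth, with vehicle the deeper by the reporting summary, and no value was corrected for it. Scores tie at the ceiling, and a peak missing from a list may be a site just under its calling limit. What the score measures is not stated, so a difference in score between the lists cannot be read as a difference in signal. A window assigns peaks by distance, and 4 of the 39 TGFβ 2 h peaks and 6 of the 34 vehicle peaks had another gene's coding start nearer than that of the KLF gene.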

Other observations

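Just beyond the 50 kb windows, Klf11 had a further vehicle-only peak at 50.1 kb from the gene (25285755 to 25286185, score 653). TGFβ 2 h-only peaks of Klf11, Klf4, Klf7 and Klf13 lay at 57.7, 60.7, 65.5 and 72.7 kb, with scores of 545, 942, 785 and 810. For Klf2, Klf3, Klf5, Klf6, Klf9 and Klf10 the nearest TGFβ 2 h peak outside the window was shared.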
